A study of Mus musculus with 13 samples.

Results

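Liver sinusoidal endothelial cells (LSEC) and 1-day cultured hepatic stellate cells (HSC) were compared together with hepatocytes and Kupffer cells, the liver macrophages, to describe the genes that the LSEC and HSC arrays share. A gene was counted as shared and higher when LSEC and 1-day HSC were each above hepatocytes and each above Kupffer cells, with a log2 difference of at least 1 and an adjusted p below 0.05 (Benjamini-Hochberg, over all genes tested) in all 4 contrasts of a limma fit. The mirror rule gave the genes that were lower in both. Of 12081 genes tested, 298 were higher in both and 97 were lower in both, on 5 arrays of LSEC and 1-day HSC and 6 arrays of hepatocytes and Kupffer cells, out of 13 arrays in the series. These counts are 2.47% and 0.803% of the genes tested. The 7-day and 14-day HSC cultures, which took no part in the choice, were then read for the same genes.

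All cells came from livers of naive C57BL/6 mice aged 6 to 10 weeks. LSEC (3 arrays), hepatocytes (3 arrays) and Kupffer cells (3 arrays) were sorted and used fresh. HSC were kept in DMEM with fetal bovine serum, and 2 arrays held cells after 1 day, 1 array cells after 7 days and 1 array cells after 14 days. No array of uncultured HSC was analysed here. Cell type and culture therefore cannot be told apart for any difference that involves HSC. The array titles speak of biological replicates, except for the 7-day and 14-day cultures, but the labels do not say if each replicate is another animal. In such bulk samples, fewer cells of a type and less RNA per cell cannot be told apart.

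LSEC line the sinusoids of the liver with a fenestrated wall that has no continuous basement membrane. HSC lie on the outer face of that wall, in the perisinusoidal space, where they store retinoids, and in injured liver or in culture they turn into contractile cells that lay down matrix. Endothelial cells and the perivascular cells that surround them both deposit matrix and grip it through integrins tied to the actin cytoskeleton. Hepatocytes are polarised epithelial cells that secrete plasma proteins, and Kupffer cells are macrophages resident in the sinusoid.

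The values are deposited intensities per probe set on a linear scale, and array medians lay between 216.5 and 232.9. Log2 differences were taken after adding 83 to each intensity, so they understate the fold of dim genes. Replicate arrays of a group had r = 0.986 to 0.996 across probe sets, which are not independent replicates. Summed over 17 endothelial markers, intensity was 73086 to 106540 in LSEC and 17267 to 18693 in 1-day HSC, against 4067 to 5316 in hepatocytes and 14568 to 17223 in Kupffer cells. Over 9 stellate markers the sum was 34051 to 34963 in 1-day HSC and 1598 to 3037 in LSEC, against 2072 to 2384 in hepatocytes and 4235 to 6342 in Kupffer cells. The retinoid-storage marker Lrat read 257 and 353 in 1-day HSC and 107, 125 and 105 in LSEC, against 95.8, 87.1 and 95.5 in hepatocytes and 323, 195 and 183 in Kupffer cells. Lrat thus overlapped Kupffer cells on the 1-day HSC arrays, and that defining marker was dim. Over 8 hepatocyte markers the sum was 10595 to 18880 in 1-day HSC and 1031 to 1202 in LSEC, against 106327 to 109475 in hepatocytes and 2097 to 5427 in Kupffer cells.

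The genes with the widest gap between both populations and both others were Tmem47, Sparc and Timp3. Sparc, a matricellular protein that binds collagen, read 13137, 12907 and 12363 in LSEC and 11697 and 11552 in 1-day HSC, against 297, 271 and 381 in hepatocytes and 533, 634 and 372 in Kupffer cells. All 5 LSEC and HSC arrays lay far above all 6 others, and LSEC and HSC sat close together. The mean log2 difference of the LSEC and HSC groups over the hepatocyte and Kupffer groups was 4.67 (SE 0.11, largest adjusted p of the 4 contrasts = 2.7e-10). LSEC minus 1-day HSC was 0.14 (adjusted p = 0.52), which did not pass. In HSC grown longer, Sparc read 15396 at 7 days and 17247 at 14 days.

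Tmem47, a membrane protein related to the claudins, read 6458, 6389.7 and 5858 in LSEC and 5655 and 6266 in 1-day HSC, against 163, 146 and 215 in hepatocytes and 225, 212 and 183 in Kupffer cells. The LSEC and HSC arrays overlapped each other and lay well clear of the rest, with a mean log2 difference of 4.50 (SE 0.08, adjusted p = 2.5e-11). Timp3, a matrix-bound inhibitor of metalloproteinases, read 5627, 7359 and 6545 in LSEC and 12239.9 and 15280.3 in 1-day HSC, against 156, 172 and 154 in hepatocytes and 279.8, 284 and 182 in Kupffer cells. Both HSC arrays were above all LSEC arrays, by a log2 difference of LSEC minus HSC of −1.07 (adjusted p = 1.3e-04). Timp3 had the largest mean difference of the 298 genes, at 5.07 (SE 0.10, adjusted p = 4.2e-11). The promoters of these 3 genes are shown because they lead the shared set. They come from RefSeq on GRCm38.p6, from 250 bases before to 50 after the start of the gene, 5′ to 3′ on the strand of the gene. Capitals mark GGGCGG, the letters bound by SP1, on either strand (CCGCCC where it lies on the other strand). Tmem47 lies at chrX:81070394-81070693 on the plus strand, Sparc at chr11:55420031-55420330 on the minus strand and Timp3 at chr10:86300162-86300461 on the plus strand.
Tmem47: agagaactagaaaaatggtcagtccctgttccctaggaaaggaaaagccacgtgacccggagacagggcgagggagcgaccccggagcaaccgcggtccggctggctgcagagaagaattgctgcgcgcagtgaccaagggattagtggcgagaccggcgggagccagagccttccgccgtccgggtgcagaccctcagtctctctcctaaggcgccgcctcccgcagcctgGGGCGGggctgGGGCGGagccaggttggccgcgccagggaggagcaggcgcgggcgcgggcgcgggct
Sparc: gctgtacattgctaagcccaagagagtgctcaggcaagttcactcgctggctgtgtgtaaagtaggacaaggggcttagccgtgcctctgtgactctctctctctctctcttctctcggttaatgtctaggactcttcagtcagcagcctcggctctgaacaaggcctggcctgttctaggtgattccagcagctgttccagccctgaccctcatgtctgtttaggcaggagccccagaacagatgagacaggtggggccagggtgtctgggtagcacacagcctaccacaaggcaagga
Timp3: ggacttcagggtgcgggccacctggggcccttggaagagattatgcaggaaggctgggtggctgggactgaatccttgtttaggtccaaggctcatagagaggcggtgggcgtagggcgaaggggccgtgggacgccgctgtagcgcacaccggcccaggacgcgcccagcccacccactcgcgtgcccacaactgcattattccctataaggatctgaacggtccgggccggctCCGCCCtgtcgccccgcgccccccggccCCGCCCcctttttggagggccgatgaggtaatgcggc
Tmem47 and Timp3 hold 2 matches each, and Sparc holds none of the motifs searched. A match is a description of the letters, and the lack of one says only that these letters are not in the window.

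A further 11 genes had gaps among the 15 widest. Mest, an imprinted gene of the hydrolase family, read 7333, 6729 and 4524 in LSEC and 2537 and 2111 in 1-day HSC, against 100.2, 66.1 and 112 in hepatocytes and 110.3, 86.4 and 115 in Kupffer cells. LSEC were above HSC here, with a log2 difference of 1.36 (adjusted p = 7.6e-05), and both were far above the rest (4.41 on average, SE 0.12, adjusted p = 3.4e-09). Ccn2, the secreted connective tissue growth factor, ran the other way between the populations. It read 8579, 8689 and 10326 in LSEC and 18753 and 19321 in 1-day HSC, against 1209.6, 772 and 649 in hepatocytes and 297, 279 and 332 in Kupffer cells, and hepatocytes were the nearer of the others. Igfbp7, a secreted protein that binds insulin-like growth factors, read 13946, 13416 and 11176 in LSEC and 15386 and 15627 in 1-day HSC, against 484, 418 and 610.4 in hepatocytes and 1471, 1384 and 1126 in Kupffer cells. Its LSEC and HSC arrays differed by −0.28 (adjusted p = 0.15), which did not pass.

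Eng, the TGF-beta co-receptor endoglin, read 9749, 10120.3 and 7632 in LSEC and 7233 and 6483 in 1-day HSC, against 236, 172 and 279 in hepatocytes and 841, 689 and 596 in Kupffer cells. Every HSC array was below every LSEC array, yet the difference of 0.41 did not pass (adjusted p = 0.067). Gja1, a gap junction connexin, read 4433, 4434 and 4982 in LSEC and 3086 and 2775 in 1-day HSC, against 199.7, 203 and 248 in hepatocytes and 116, 105 and 98.2 in Kupffer cells. Emcn, a sialomucin used as an endothelial marker, read 4619, 3584 and 2524 in LSEC and 1842 and 1588 in 1-day HSC, against 94.1, 76.6 and 77.1 in hepatocytes and 132, 122 and 114 in Kupffer cells. Mean log2 differences were 3.78 for the membrane protein Tm4sf1, 4.14 for the adhesion receptor Adgrl4 and 3.60 for the matrix protein Tinagl1. They were 3.66 for Pxdn, which cross-links collagen IV, and 3.36 for the actin-bundling Fscn1. Adjusted p-values of these 11 genes reached at most 1.1e-07, that of Fscn1.

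**Figure D1:**
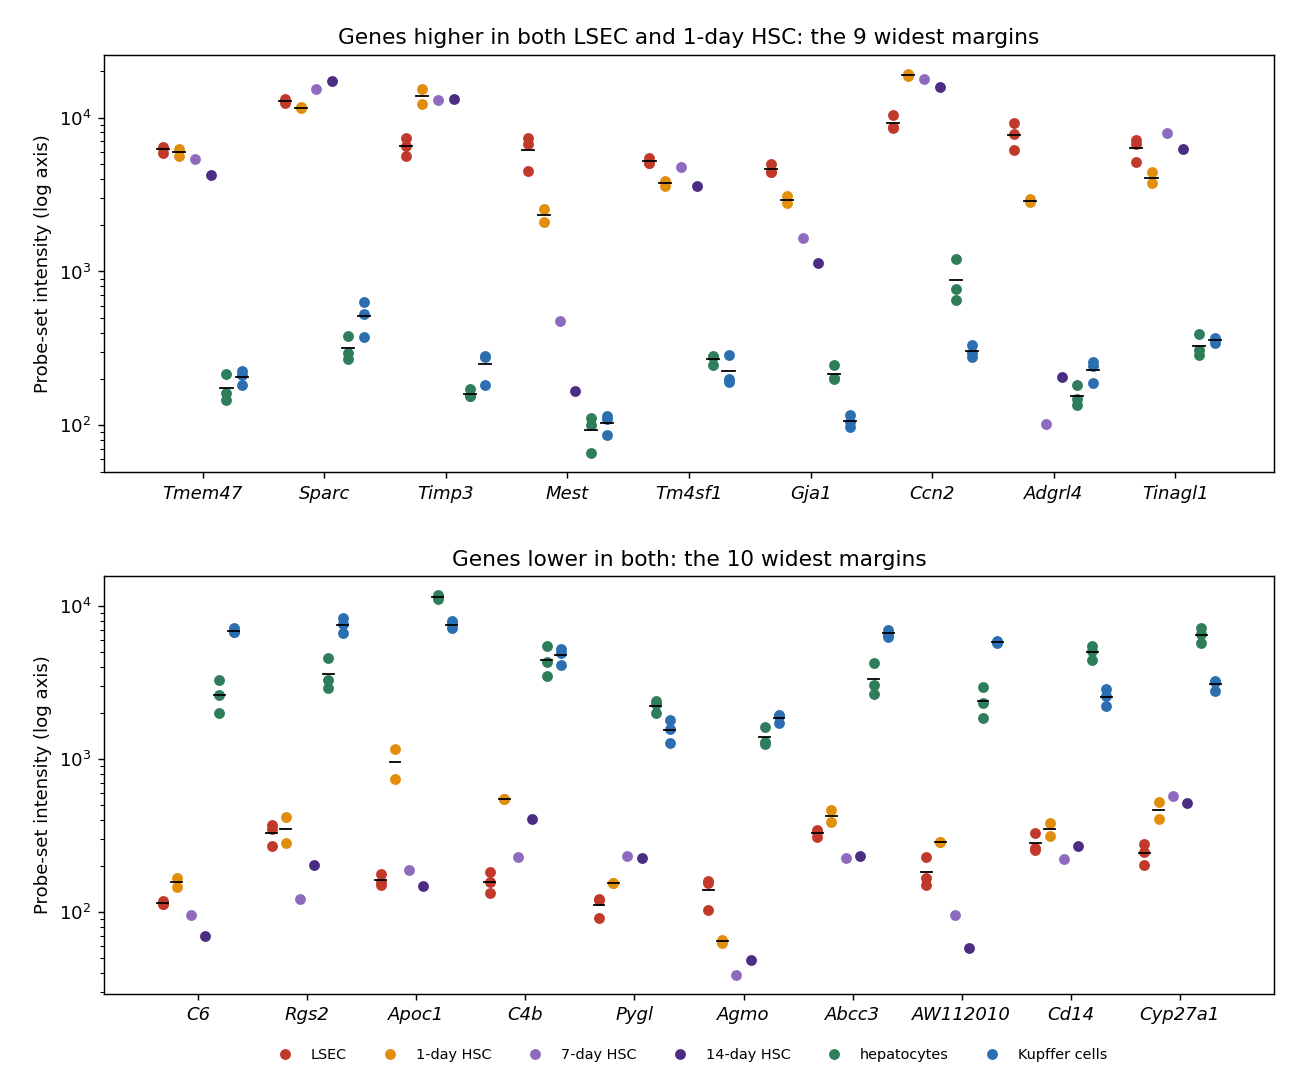
Probe-set intensity (log axis) of the 9 higher and 10 lower genes with the widest margin, with a point per array, coloured by group, and a bar at the mean of groups with over 1 array (the 7-day and 14-day HSC have 1 point each). In the upper panel the LSEC and 1-day HSC points of each gene lie above all hepatocyte and Kupffer cell points, and in the lower panel they lie below them.

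The 298 genes had a median mean difference of 2.26 on the log2 scale, from 1.08 to 5.07, and the 97 lower genes a median of −2.15, from −4.31 to −1.17. In all 298 the 5 arrays lay above the other 6, and in all 97 they lay below, which the call rule nearly requires. Of all genes tested, 17.7% had the first arrangement and 7.82% the second. At the edge of the rule, Erbb2 and Gtse1 stood just inside the limit of 1 for higher genes, and Afap1 and Gramd4 just outside it. For lower genes, Mettl7a1 and Gadd45b stood just inside and Gatd1 and Terc just outside. The pooled contrast alone, which a gene of a single population can pass, called 1025 genes higher (8.48%) and 1086 lower (8.99%).

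**Figure D2:**
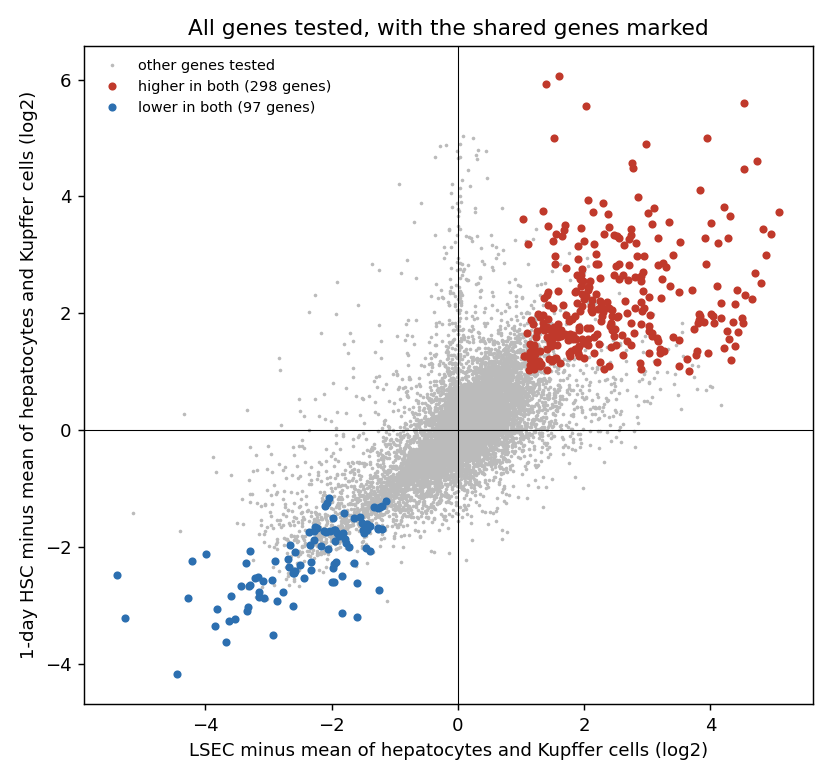
Each point is a gene, with the log2 difference of LSEC from the mean of hepatocytes and Kupffer cells on the x axis and that of 1-day HSC on the y axis. The 298 genes higher in both (red) and the 97 lower in both (blue) fill the upper right and lower left, and grey points along the vertical or horizontal line moved in 1 population.

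Named to complete a list, after their values were seen, are the genes given in the list accounts without a value. Over all genes tested, 2.47% were higher and 0.803% lower in both, and each list count is to be read beside these shares. Of 17 basement membrane genes tested, 6 were higher in both and 0 lower, with a median difference of 0.97 over the 17 (0.05 over all genes tested). All 6 were also kept in longer culture. Kept means that the merged 7-day and 14-day HSC arrays were above hepatocytes and above Kupffer cells by the same limits. So were 7.76% of all genes tested in that fit and 67.8% of the 298 genes higher in both. The 67.8% is the nearer comparison for the kept counts of the lists. Besides Sparc the 6 included the laminin-collagen linker Nid1, the heparan sulfate proteoglycan perlecan gene Hspg2 and the laminin chain gene Lama4. Nid1 read 2968, 2937 and 2858 in LSEC and 6646 and 5955 in 1-day HSC, against 1525, 1332 and 953 in hepatocytes and 189, 153 and 146 in Kupffer cells. Hepatocytes were the near neighbour of Nid1, and without hepatocyte replicate 3 its smallest difference was 0.99, under the limit. Hspg2 read 3874, 3837 and 2597 in LSEC and 1859 and 1578 in 1-day HSC, against 281, 268 and 309 in hepatocytes and 313, 279 and 292 in Kupffer cells, so that both others sat at a like low level. Lama4 was uneven, with 2403, 1690.4 and 1230.4 in LSEC and 408 and 394 in 1-day HSC, against 110.0, 108 and 90.6 in hepatocytes and 135, 104 and 122 in Kupffer cells, and lost its call when the pooled median was added before log2.

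The linked collagen IV genes Col4a1 and Col4a2, named to complete the list, had mean differences of 1.99 and 2.19. Col4a1 read 1714, 1828 and 1491 in LSEC and 1535 and 2097 in 1-day HSC, against 436, 528 and 539.9 in hepatocytes and 297, 256 and 277 in Kupffer cells. Col4a2 read 1836, 1923 and 1534 in LSEC and 1354 and 1855 in 1-day HSC, against 352, 358 and 358 in hepatocytes and 263, 217 and 281 in Kupffer cells. The LSEC and HSC arrays overlapped for both chains. Of the laminin chains that did not pass, Lamc1 missed through hepatocytes, with a mean difference of 2.14 and a smallest difference of 0.96. It passed without hepatocyte replicate 1, at 1.02, and without hepatocyte replicate 2, at 1.01. Lamb1 read 216, 177 and 152 in LSEC and 1584 and 1533 in 1-day HSC, against 167, 196 and 179.6 in hepatocytes and 149, 162 and 147 in Kupffer cells, and so stood out in HSC and not in LSEC.

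Of 28 interstitial matrix and matricellular genes, 6 were higher in both, 5 of them also in longer cultures, with a median difference of 0.82. Next to Ccn2 and Igfbp7, Tnc and Thbs1 passed with very unequal levels. Tenascin C, the adhesion-modulating glycoprotein encoded by Tnc, read 690.1, 458 and 244 in LSEC and 10915 and 11697 in 1-day HSC, against 92.6, 105 and 65.8 in hepatocytes and 93.3, 77.5 and 92.4 in Kupffer cells. Thrombospondin, encoded by Thbs1, read 1902, 1827 and 782 in LSEC and 16682 and 17142 in 1-day HSC, against 221, 344 and 337 in hepatocytes and 334, 215 and 255 in Kupffer cells. Both genes cleared hepatocytes and Kupffer cells in LSEC by a modest step and in HSC by a large one. The proteoglycan gene Bgn (3.63) and the endothelial multimerin gene Mmrn2 (3.06) made up the 6. Ccn1 (2.34) did not pass, since its LSEC arrays at 1854, 1541 and 3005 overlapped hepatocytes at 2542, 1998 and 1201, nor did Postn (2.15).

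Collagen processing genes had a median difference of 0.51 over the list. Of 15 tested, 1 was higher in both (6.67%, where 2.47% of all genes were), Serpinh1, the collagen chaperone. It read 765, 894 and 586 in LSEC and 3108 and 3729.8 in 1-day HSC, against 350.2, 277 and 334 in hepatocytes and 271, 253 and 314 in Kupffer cells. LSEC lay just above the limit. The call was lost after quantile normalization or with the pooled median added before log2, and the smallest difference was 0.95 without hepatocyte replicate 2 and 0.90 without LSEC replicate 2, both under it. Plod2 (1.85) and Lox (1.64), which modify collagen lysines, did not pass. Of 9 genes for caveolae and membrane coats, 2 passed and both were kept in longer cultures, with a median difference of 0.94. Caveolin, encoded by Cav1, read 3078, 2398 and 1697 in LSEC and 714 and 668 in 1-day HSC, against 131, 228 and 315 in hepatocytes and 176, 142 and 152 in Kupffer cells. In HSC it reached 2427 at 7 days and 4145 at 14 days, within or above the LSEC range. Cavin1, its coat partner, read 1114, 1041 and 858 in LSEC and 896 and 749 in 1-day HSC, against 328, 359 and 302 in hepatocytes and 187, 118 and 137 in Kupffer cells. Cavin1 lost its call with the pooled median added before log2. Ehd2 (1.65) and Cav2 (1.29) did not pass.

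Genes that tie matrix to the cytoskeleton followed. Of 25 integrins and linkers, 4 were higher in both, all 4 also in longer cultures, with a median difference of 0.92. Parva, an adaptor between integrin-linked kinase and actin, read 2688, 2627 and 2906 in LSEC and 5781 and 5704 in 1-day HSC, against 1200.2, 1226 and 1244 in hepatocytes and 167, 159 and 169.6 in Kupffer cells. Itga5, the fibronectin receptor chain, read 3065, 3332 and 2221 in LSEC and 5958 and 5966 in 1-day HSC, against 670.1, 677 and 666 in hepatocytes and 928, 866 and 1097 in Kupffer cells. Both HSC arrays were above all LSEC arrays for each gene, with LSEC minus HSC at −1.05 for Parva and −1.05 for Itga5. Itgb3 (1.90), a vitronectin receptor chain, and Itga1 (1.86), a collagen receptor chain, also passed. Itga1 lost its call with the pooled median added before log2. Itgb3 read 1901 at 7 days and 628 at 14 days, and on the 14-day array alone it was not kept. Fermt2 (2.40) and Tns1 (2.35) did not pass.

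Among 25 actin and contractile genes, 7 were higher in both and all 7 were kept, with a median difference of 1.67. They were Cnn2, Tpm1, Vim and Tagln2, and, to complete the list, Actn4, Tpm4 and Pdlim7. Calponin, encoded by Cnn2, read 1383, 1448 and 1359.9 in LSEC and 4817 and 3982 in 1-day HSC, against 114, 76.9 and 121 in hepatocytes and 553, 547 and 478 in Kupffer cells. Tropomyosin, encoded by Tpm1, read 3041, 3182 and 3025 in LSEC and 4876 and 6073 in 1-day HSC, against 1197, 1225 and 893 in hepatocytes and 207, 158 and 160.0 in Kupffer cells. HSC were the higher of the 2 shared populations for both genes. The intermediate filament gene Vim read 14618, 13462 and 12152 in LSEC and 14718 and 14171 in 1-day HSC, against 510.0, 453 and 699.7 in hepatocytes and 6614, 6475 and 6828 in Kupffer cells, where it was bright too. Its smallest difference was 1.002, and it came under the limit of 1 with the pooled median added before log2, without Kupffer replicate 1 (0.999) or 2 (0.98) and without LSEC replicate 1 (0.94) or 2 (0.997). Tagln2 had a mean difference of 2.26, while Pdlim1 (2.54) and Tagln (2.47) did not pass.

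Of 16 YAP and TEAD genes, 4 were higher in both and all were kept, with a median of 1.08. YAP is a co-activator that enters the nucleus under tension or spreading and acts through TEAD factors. Ankrd1, a textbook YAP target, read 417, 403 and 492 in LSEC and 11897 and 12128 in 1-day HSC, against 108, 96.2 and 106 in hepatocytes and 107, 129 and 149 in Kupffer cells. LSEC were dim yet all above the other 6 arrays, and HSC were far brighter, with a log2 difference of LSEC minus HSC of −4.54 (SE 0.10, adjusted p = 3.4e-11). Its call was lost with the pooled median added before log2. Amotl1 read 1331, 1328 and 1093 in LSEC and 1215 and 1230.2 in 1-day HSC, against 153, 194 and 174 in hepatocytes and 246, 212 and 216 in Kupffer cells. Lats2, a kinase that restrains YAP, read 2201, 2179 and 2169 in LSEC and 2111 and 2098 in 1-day HSC, against 756, 580.1 and 585 in hepatocytes and 792, 750.0 and 850.2 in Kupffer cells. Amotl1 and Lats2 were near level between LSEC and HSC, at 0.03 and 0.05. Tead1 (2.23) did not pass.

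The Ankrd1 promoter is shown, a choice made after its values were seen, because it holds the TEAD letters. It lies at chr19:36119795-36120094 on the minus strand (RefSeq, GRCm38.p6). Capitals mark GGAATG, which is CATTCC on the other strand.
Ankrd1: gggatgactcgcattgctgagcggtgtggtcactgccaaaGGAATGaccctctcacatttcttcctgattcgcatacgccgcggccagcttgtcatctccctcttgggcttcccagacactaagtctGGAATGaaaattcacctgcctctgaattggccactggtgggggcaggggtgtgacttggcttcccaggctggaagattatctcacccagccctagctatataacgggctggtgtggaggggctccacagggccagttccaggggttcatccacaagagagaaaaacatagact
CATTCC on either strand was found in 17.9% of 290 promoters of the genes higher in both, 11.3% of 97 promoters of the genes lower in both and 12.2% of 12319 promoters of all genes tested. A gene could have over 1 promoter, and 224 of the 298 genes, 72 of the 97 and 9690 of the 12081 had a promoter in the table. TGANTCA, the AP-1 letters, was in 8.28% of the promoters of higher genes, 6.19% of those of lower genes and 5.50% of all. GGGCGG was in 62.1% of the higher, 59.8% of the lower and 60.7% of all. The CArG box of SRF was in 2.41% of the higher, 2.06% of the lower and 1.36% of all. CCGGAAG, the ETS letters, was in 4.14% of the higher and 7.22% of the lower against 16.1% of all. Median GC content was 60.7% in the higher, 59.0% in the lower and 60.7% in all. Motifs were counted on both strands, and the overlap of 1 motif with another was not removed. These shares are descriptions with no test.

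Signalling genes were shared too, but a smaller part of those described here was kept in longer HSC cultures. Of 28 TGF-beta and BMP genes 4 were higher in both (median 0.65), and Eng alone was kept. Bmp2, the ligand by which sinusoidal endothelium controls hepatocyte iron sensing, read 4329.6, 4211 and 1784 in LSEC and 1553 and 1816 in 1-day HSC, against 141, 143 and 171 in hepatocytes and 387, 350.5 and 323 in Kupffer cells. Bmp6, its partner in that task, read 5082, 5631 and 6211 in LSEC and 1512 and 1326 in 1-day HSC, against 390.1, 275 and 367 in hepatocytes and 349, 282 and 254 in Kupffer cells. In HSC grown longer, Bmp2 read 393 at 7 days and 113 at 14 days, and Bmp6 read 611 and 375. At 14 days both were within or below the range of the hepatocyte arrays. The co-receptor gene Tgfbr3 (2.43) was not kept with both arrays but passed with the 7-day array alone, and Tgfb3 (1.66) and Ltbp4 (1.60) did not pass.

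Of 22 growth factor and vessel receptor genes, 7 were higher in both (median 1.87) and 4 were kept. Igf1r, the receptor of insulin-like growth factors, read 1831, 1740.4 and 1416 in LSEC and 2351 and 2634 in 1-day HSC, against 119.9, 108 and 173 in hepatocytes and 231, 263 and 236 in Kupffer cells. Angpt2, a ligand of the receptor Tek, read 5306, 4704 and 4927 in LSEC and 1079.8 and 921 in 1-day HSC, against 181, 192 and 172 in hepatocytes and 133, 148 and 137 in Kupffer cells. Igf1r was higher in HSC on every array, whereas Angpt2 was far higher in LSEC. Nrp2 (3.21), a co-receptor of vascular growth factors, was kept with both long arrays and not with the 7-day array alone. Tek, the angiopoietin receptor, read 4887, 4401 and 3128 in LSEC and 542 and 541 in 1-day HSC, against 132, 106 and 126 in hepatocytes and 154, 124 and 135 in Kupffer cells. At 7 days it read 118 and at 14 days 94.1, within or below the range of hepatocytes. Igfbp3, Kdr and Flt1 completed the 7. Tie1 (2.46) passed without hepatocyte replicate 3 (1.03) or 1-day HSC replicate 2 (1.12). Flt4 (2.41) passed without Kupffer replicate 1 (1.07) or 1-day HSC replicate 2 (1.03), and with all arrays both passed only when 16 was added before log2.

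Of 23 genes for lipid mediators and vasoactive signals, 6 were higher in both (median 1.45) and 2 were kept. Those 2 were a receptor and its ligand. Ednrb, the endothelin B receptor, read 7315, 8071 and 10152 in LSEC and 2466 and 3053 in 1-day HSC, against 319, 290.0 and 309 in hepatocytes and 100.03, 109.7 and 126 in Kupffer cells. Edn1, the precursor of endothelin, read 5261, 5400.4 and 6492 in LSEC and 1501 and 804 in 1-day HSC, against 147, 139 and 175 in hepatocytes and 119, 71.4 and 108 in Kupffer cells. LSEC minus 1-day HSC was 1.59 for Ednrb (adjusted p = 1.3e-06) and 2.28 for Edn1 (adjusted p = 2.1e-06). The sphingosine phosphate receptor gene S1pr1 (3.42) and Calcrl (3.04), a receptor of adrenomedullin, passed but were not kept, and Plpp3 and Ramp2 were likewise not kept. S1pr3 (2.55) and Ptgs2 (2.29) did not pass.

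Of 22 guidance genes, 7 were higher in both (median 1.43) and 4 were kept. Unc5b, a netrin receptor, read 1377, 1788 and 1437 in LSEC and 2935 and 2212 in 1-day HSC, against 760.1, 499 and 459.5 in hepatocytes and 189.9, 172 and 196 in Kupffer cells. Robo1, a Slit receptor, read 3311, 2908 and 1775 in LSEC and 890.4 and 967 in 1-day HSC, against 348, 269 and 324 in hepatocytes and 203, 135 and 182 in Kupffer cells. Unc5b leaned to HSC and Robo1 to LSEC, and Robo1 was kept with both long arrays and not with the 14-day array alone. Plxnd1 (2.91), a semaphorin receptor, and Robo4 (2.95) passed and were not kept. The ligand Efnb2 and its receptor Ephb4 were kept and Sema6a was not. Robo2 (2.62) and Plxna2 (2.42) did not pass.

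In the Notch and Wnt list 1 of 22 genes passed (4.55%, where 2.47% of all genes did, median 0.54). This was Rspo3, which amplifies Wnt signals, with 409, 358 and 300.0 in LSEC and 1977 and 3177 in 1-day HSC, against 101, 126 and 176 in hepatocytes and 148, 137 and 99.7 in Kupffer cells. It was far higher in HSC, and its LSEC side lay so near the limit that the call was lost without hepatocyte replicate 1 (0.91) or 2 (0.999), Kupffer replicate 3 (0.95) or LSEC replicate 1 (0.93), values being the smallest difference. Fzd4 (2.35) and Tcf4 (2.22) did not pass. Of 44 transcription factor genes of vessel wall cells, 6 were higher in both (median 0.73) and 4 were kept. Gata4, known to hold both LSEC and HSC in their liver state, read 2416, 3137 and 2135 in LSEC and 2100.3 and 2053 in 1-day HSC, against 693, 657 and 605 in hepatocytes and 329, 340.0 and 254 in Kupffer cells. It read 1273 at 7 days and 1049 at 14 days, above every hepatocyte and Kupffer cell array but by under 1 on the log2 scale from the hepatocyte mean. Meis2 (3.17), Nfib (2.77), Ets1 (2.24) and Sox4 were kept, Ets1 not on the 14-day array alone, and Sox17 was not kept. Foxf1 (2.50) and Sox7 (2.33) did not pass, and Sox7 passed with 16 added before log2.

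Of 23 tight and adherens junction genes, 4 were higher in both (median 1.04) and 3 were kept. They were Gja1, Jam2 (2.90) and Mcam (1.92), while the endothelial adhesion gene Esam (3.38) was not kept. Tjp1 (2.62) and Cldn5 (2.30) did not pass. Cldn5 read 7171, 7577 and 4574 in LSEC and 428 and 366 in 1-day HSC, against 296, 238 and 348 in hepatocytes and 259, 271 and 233 in Kupffer cells, and so was bright in LSEC alone. Of 4 smooth muscle genes tested, Smtn passed (2.26) and was kept, with a median of 1.17. Des (1.90) and Myh11 (0.44) did not pass. Of 9 stellate markers 0 were shared, while 7 of them passed in 1-day HSC against both others. That rule is looser than the shared rule, and the share of all genes that pass it was not counted. Reln (2.08) and Dcn (2.06) had the largest mean differences of LSEC and HSC over the others. Of the 8 hepatocyte, 7 Kupffer, 6 mesothelial, 1 cholangiocyte and 1 lymphocyte markers tested, 0 were higher or lower in both.

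**Figure D3:**
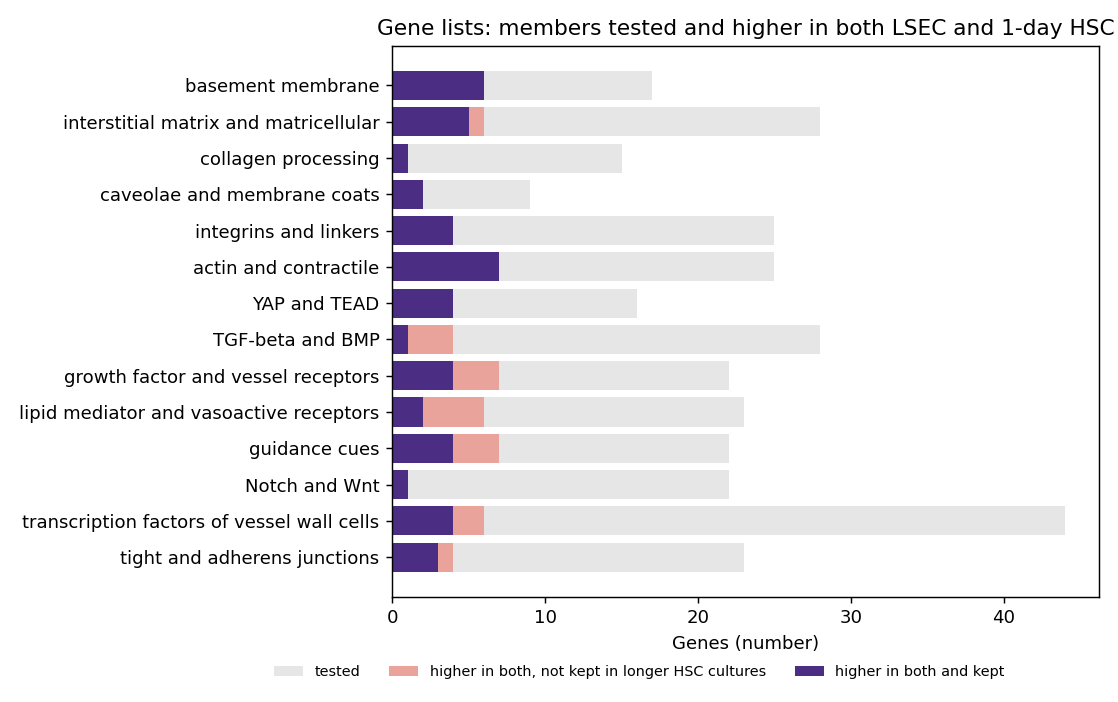
Bars give the number of genes of each list tested (grey), higher in both LSEC and 1-day HSC (whole coloured length) and, within these, still above hepatocytes and Kupffer cells in 7-day and 14-day HSC (purple). Matrix, integrin, actin and YAP lists are almost wholly purple, and the TGF-beta and BMP and the vasoactive lists are mostly pink.

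The lists of imprinted genes and of amino acid supply were added after the data were seen. Of 18 imprinted genes 4 were higher in both and 1 was lower, with a median difference of 0.12. Grb10, an adaptor that restrains insulin and growth factor receptors, read 2006, 2245 and 2246 in LSEC and 2133 and 2595 in 1-day HSC, against 227, 278 and 192 in hepatocytes and 133, 121 and 92.2 in Kupffer cells. Plagl1, a zinc finger regulator, read 1763, 1713 and 2099 in LSEC and 1032 and 1179 in 1-day HSC, against 159, 179 and 237 in hepatocytes and 156, 132 and 213 in Kupffer cells. With Mest and Sgce these made the 4, all kept in longer cultures, although Mest read 477 at 7 days and 167 at 14 days and was not kept on the 14-day array alone. Slc22a18 was lower (−2.15). Ndn (1.87) did not pass, nor did Peg10 (2.69), which passed with 16 added before log2 and without hepatocyte replicate 3 (1.09) or 1-day HSC replicate 2 (1.25).

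Of 26 genes of amino acid supply, 6 were higher in both and 4 were kept, with a median of 1.16. Asns, asparagine synthetase, read 4527, 5182 and 8794 in LSEC and 6877 and 9763 in 1-day HSC, against 2110.2, 3038 and 2781 in hepatocytes and 88.3, 121 and 111 in Kupffer cells. Kupffer cells were nearly dark for it and hepatocytes were the near neighbour, and without LSEC replicate 3 its smallest difference was 0.87, under the limit. The transporter gene Slc7a5 read 3893, 4438 and 4209.7 in LSEC and 7037 and 8357 in 1-day HSC, against 1044, 1270.3 and 756 in hepatocytes and 459, 399 and 515 in Kupffer cells. Slc7a1 (2.67) passed as well. The folate enzyme gene Mthfd2 (2.27) passed, and its call was lost after quantile normalization, with the pooled median added before log2, and without hepatocyte replicate 3 (0.98) or LSEC replicate 3 (0.90). Slc7a11 (1.91) and Psat1 (1.77) did not pass.

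The contrast of LSEC with 1-day HSC is not among the 4 contrasts of the rule, but it uses the same LSEC and HSC values. The shares among the chosen genes are therefore a description and not an independent reading. Of all genes tested, the contrast called 5.24% higher and 5.6% lower in LSEC. Among the 298 shared higher genes, 66 (22.1%) were higher in LSEC, 33 (11.1%) were higher in 1-day HSC and 199 passed neither way. Among the 97 lower genes, 4 were higher in LSEC, 7 were higher in 1-day HSC and 86 passed neither way. Passing neither way does not show that the levels were equal. The 5 genes that leaned most to LSEC were Plekhg1 (3.12), F8 (2.94), Egfl7 (2.81), Mmrn2 (2.76) and Tek (2.73). The coagulation factor gene F8 read 6966, 5639 and 3999 in LSEC and 511 and 775 in 1-day HSC, against 105, 125 and 150.2 in hepatocytes and 288, 234 and 219 in Kupffer cells. The HSC side of F8 was close to the limit, and without 1-day HSC replicate 2 the smallest difference was 0.85. The 5 that leaned most to HSC were Ankrd1 (−4.54), Tnc (−4.46), Thbs1 (−3.52), Fstl1 (−3.47) and Rspo3 (−2.57). Fstl1, a secreted relative of follistatin, read 700.2, 583 and 250.4 in LSEC and 6133 and 6089 in 1-day HSC, against 132, 107 and 141 in hepatocytes and 102, 84.8 and 102 in Kupffer cells. Plekhg1 lost its shared call with the pooled median added before log2, as did F8, Ankrd1 and Rspo3.

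The 7-day and 14-day HSC arrays were then merged and set against hepatocytes and Kupffer cells in a fit of all 13 arrays and 12368 genes. Each time has 1 array, so their difference stands in for replicate spread, and the 6 hepatocyte and Kupffer cell arrays are the same ones that chose the genes. Of the 298 genes, 202 (67.8%) were still at least 1 above both others with an adjusted p below 0.05, where 7.76% of all genes were called so. The count was 208 with the 7-day array alone and 188 with the 14-day array alone, and 182 genes were kept in all 3 fits. Of the 96 genes not kept, 84 had both long arrays under 1 above the higher of the hepatocyte and Kupffer cell means, and in 16 both arrays were below that mean. Of the 97 lower genes, 71 (73.2%) were still below both others, where 1.86% of all genes were.

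Among the 202 kept genes 29 were higher in LSEC and 33 in 1-day HSC, and among the 96 not kept 37 were higher in LSEC and 0 in 1-day HSC. A shared gene that leans to 1-day HSC starts further above the limit in HSC, so this split partly follows from the rule. The median intensity in 1-day HSC was 102.9% of the LSEC mean for the kept genes and 66.5% for the others. In the 7-day and 14-day arrays the medians were 126.2% and 107.7% for the kept genes, and 36.1% and 23.6% for the others. These percentages share their LSEC denominator, and the last of them follow from how the kept genes were defined, so they are given as a description.

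Set against 1-day HSC, 29 of the 298 genes were higher in the merged long cultures and 54 were lower, while 215 passed neither way (5.52% of all genes were higher and 4.27% lower). The highest were Ccdc80, Igfbp3, Mxra8, Dpysl3 and Ch25h. Ccdc80, a secreted matrix protein, read 871 and 1063 in 1-day HSC, 7837 at 7 days and 9383 at 14 days, with 829, 866 and 532 in LSEC, 135, 131 and 113 in hepatocytes and 126, 128 and 109 in Kupffer cells. The long cultures were about level with each other and above all LSEC arrays, with a log2 difference from day 1 of 3.05 (SE 0.18, adjusted p = 7.6e-08). Igfbp3, a carrier of insulin-like growth factors, read 887 and 938 in 1-day HSC, 5284 at 7 days and 7007 at 14 days (2.63, adjusted p = 2.3e-04). Mxra8 (2.52), the neuronal and mesenchymal gene Dpysl3 (2.42) and the cholesterol hydroxylase gene Ch25h (2.35) followed.

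The lowest were Adgrl4, Car8, Cd93, Mest and Esam. Adgrl4 read 2811 and 2967 in 1-day HSC, 101 at 7 days and 205 at 14 days, with 9221, 7881 and 6144 in LSEC, 149, 136 and 182 in hepatocytes and 259, 242 and 189.5 in Kupffer cells. The long cultures were below or within the range of the hepatocyte and Kupffer cell arrays, a log2 difference from day 1 of −3.69 (SE 0.21, adjusted p = 5.7e-08). Cd93, an endothelial and myeloid lectin-like receptor, read 3321 and 3109.5 in 1-day HSC, 407 at 7 days and 423 at 14 days, with 12760.1, 12338 and 11091 in LSEC, 602, 431 and 712 in hepatocytes and 206, 179 and 148 in Kupffer cells. Cd93 in long culture thus lay below every hepatocyte array and above every Kupffer cell array. Car8 (−3.02), related to the carbonic anhydrases, lost its shared call in separate settings, each enough alone. They were quantile normalization (smallest difference 0.91), the pooled median added before log2 (0.92) and leaving out hepatocyte replicate 1 (0.97). Mest (−2.68) and Esam (−2.68) had the other large falls.

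**Figure D4:**
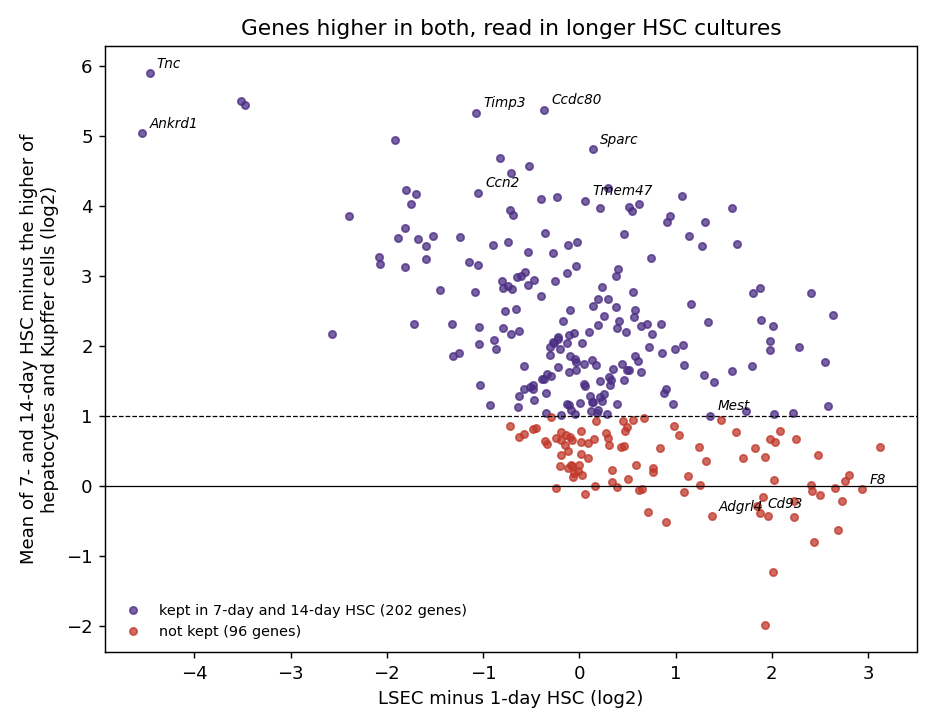
Each point is a gene higher in both, with LSEC minus 1-day HSC (log2) on the x axis and, on the y axis, the mean of the 7-day and 14-day HSC minus the higher of the hepatocyte and Kupffer cell means (log2). The 202 genes kept in long culture (purple) span both sides of 0 on the x axis, and the 96 others (red) lie mostly to the right, where LSEC were higher.

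Endothelial signal on the HSC arrays was read from 17 markers as a share of the LSEC mean. The median share was 14.2% and 14.0% on the 1-day HSC arrays, 3.93% at 7 days and 4.21% at 14 days, against 4.09% to 5.36% on hepatocyte arrays. On Kupffer cell arrays it was 4.60% to 5.89%, with Cdh5 at 65.9% to 72.4%. After subtraction of the hepatocyte mean from both values, the medians were 9.77% and 12.0% at day 1, −1.13% at 7 days and −1.10% at 14 days. Of the 17 markers, 15 and 16 were above every hepatocyte array on the 1-day HSC arrays, 5 at 7 days and 4 at 14 days. The share of all genes with that arrangement was not counted. The 7-day and 14-day counts therefore have no baseline and do not show endothelial signal there. The 4 at 14 days were Emcn, Ptprb, Kdr and F8, and at 7 days Robo4 joined them. Ptprb read 739 at 7 days and 637 at 14 days. Shares on the 1-day arrays ran from 6.64% and 5.68% for Cldn5 to 51.5% and 44.4% for Emcn.

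Of the 17 markers 7 were among the 298 genes, namely Emcn, Ptprb, Robo4 and Tek and, to complete the list, Kdr, F8 and Egfl7. Ptprb, a phosphatase of the endothelial surface, read 5933, 6406 and 4618 in LSEC and 1279 and 1228 in 1-day HSC, against 193, 164 and 199.95 in hepatocytes and 503, 356 and 260.1 in Kupffer cells. None of the 7 was kept in the merged long cultures, although Emcn, at 174 at 7 days and 455 at 14 days, passed on the 14-day array alone. Tie1 and Lyve1 (2.38) did not pass the shared rule. Emcn and Cdh5 had the highest shares on the 1-day arrays. Whether this signal is LSEC RNA in the HSC samples or transcription in HSC themselves was not tested.

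**Figure D5:**
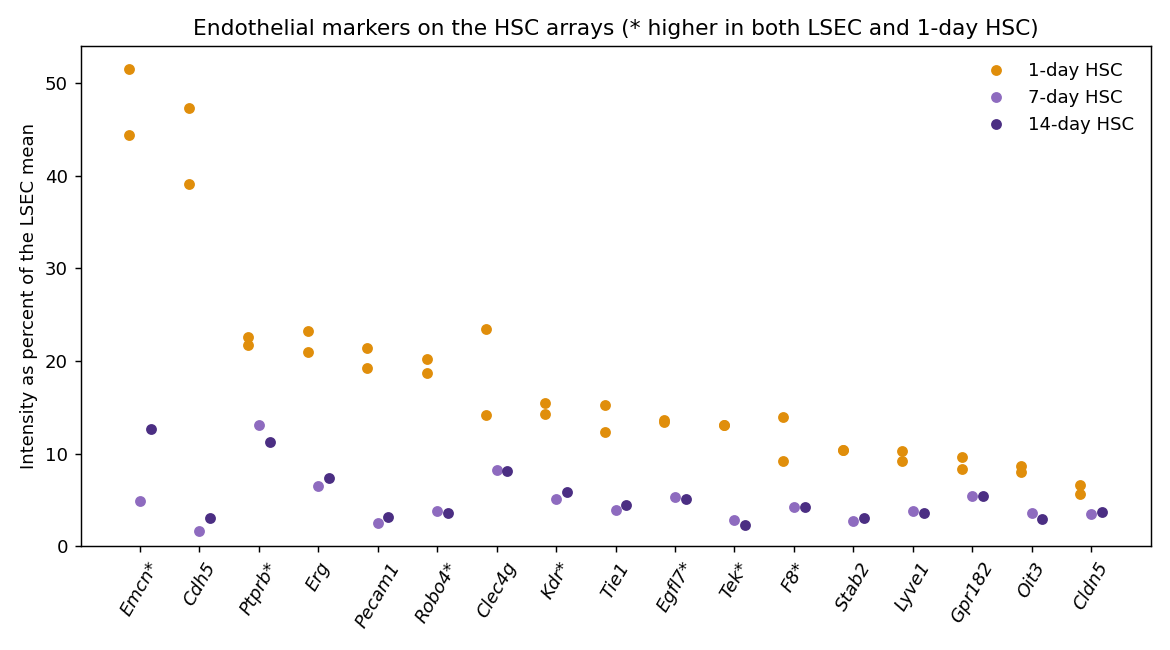
Intensity of 17 endothelial markers on each HSC array as a percent of the LSEC mean, with a point per array and an asterisk at markers higher in both LSEC and 1-day HSC. The 1-day arrays lie between 5.68% and 51.5%, and every marker is lower on the 7-day and 14-day arrays.

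The median share of each 1-day HSC array was used to subtract that part of the LSEC mean from every gene, and the rule was applied again. Of the 298 genes 195 still passed, 103 were lost and 0 were gained. The subtraction only lowers 1-day HSC values, so the lack of gains was nearly fixed in advance. The smallest difference of the lost genes ran from −2.47 for Egfl7 to 0.99 for Zfp462, so some lay just under the limit. Of the 202 genes kept in long culture 156 still passed and 46 were lost, and of the 96 others 39 still passed and 57 were lost. The 156 genes are thus shared by the values of LSEC, of 1-day HSC after this subtraction and of the long cultures. They include Tmem47, Sparc, Timp3, Mest, Tm4sf1, Gja1, Ccn2, Tinagl1, Igfbp7, Pxdn, Fscn1 and Eng. Lost genes of the named set that were kept in long culture include Lama4, Cav1, Cavin1, Vim, Angpt2, Nrp2, Edn1, Robo1, Meis2, Jam2 and Dpysl3. The subtraction takes 1 share for all genes, and a gene such as Emcn, whose share was higher than the median, keeps part of its signal. The share was not corrected for background, and hepatocyte arrays read 4.09% to 5.36% on the same measure, so the subtraction may take too much. Whether a lost call reflects LSEC RNA was not tested.

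Among the 97 genes that were lower in both, the widest gaps belonged to C6, Rgs2 and Apoc1. C6, of the terminal complement pathway, read 118, 113 and 112 in LSEC and 166 and 145 in 1-day HSC, against 1998, 3271 and 2633 in hepatocytes and 6749.9, 7163 and 6734 in Kupffer cells. All 5 LSEC and HSC arrays were dim and all 6 others far above, a mean log2 difference of −4.31 (SE 0.10, adjusted p = 1.1e-09). Rgs2, which curbs G protein signals, read 348, 371 and 270.0 in LSEC and 283 and 414 in 1-day HSC, against 4559, 3267 and 2913 in hepatocytes and 6664, 7569 and 8392 in Kupffer cells (−3.64, SE 0.13, adjusted p = 2.9e-08). Apoc1, an apolipoprotein, read 177, 158 and 149 in LSEC and 1160.5 and 738 in 1-day HSC, against 11168, 11554 and 11745 in hepatocytes and 7979, 7575 and 7139 in Kupffer cells. LSEC minus 1-day HSC was −2.05 for Apoc1 (adjusted p = 2.2e-07), and in HSC it read 186 at 7 days and 149 at 14 days, near LSEC.

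The glycogen phosphorylase gene Pygl read 120.3, 121 and 91.1 in LSEC and 155 and 155 in 1-day HSC, against 1997, 2400.2 and 2289.8 in hepatocytes and 1580.3, 1791 and 1262 in Kupffer cells. The endotoxin co-receptor gene Cd14 read 327, 261 and 252 in LSEC and 312 and 379.9 in 1-day HSC, against 5455, 5107 and 4441 in hepatocytes and 2846, 2210.4 and 2590.5 in Kupffer cells. The LSEC and HSC arrays overlapped for Cd14, and for Pygl both HSC arrays were slightly above LSEC. Cyp27a1, a mitochondrial sterol hydroxylase, read 204, 245 and 279 in LSEC and 519 and 407 in 1-day HSC, against 5701, 6512 and 7208 in hepatocytes and 2781, 3239 and 3188 in Kupffer cells. The other genes of the 10 widest gaps were C4b (−3.57), the ether lipid enzyme gene Agmo (−3.22), the organic anion exporter gene Abcc3 (−3.37) and the long non-coding RNA AW112010 (−3.60). Of the 97, 4 were not annotated as protein-coding, namely AW112010, Snord118 and the transcribed pseudogenes C4a and Mx2. C4a and C4b are near-identical, so their probe sets may read each other.

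Of 17 complement genes tested 4 were lower in both and 0 higher, with a median of −2.05, where 0.803% of all genes were lower. With C6 and C4b these were C2 (−2.05) and Cfb. Cfb, of the alternative pathway, read 207, 183 and 216 in LSEC and 674 and 500.3 in 1-day HSC, against 4203, 5464 and 5528 in hepatocytes and 2140.1, 1208 and 1159 in Kupffer cells, and without Kupffer replicate 1 its smallest difference was −0.93. C1qa (−2.48) and C1qc (−2.37), which macrophages make, did not pass. Of 14 iron and haem genes 1 was lower, Trf, the transferrin gene, with a median of −0.55. Trf read 157, 210.0 and 169 in LSEC and 2920.2 and 1197 in 1-day HSC, against 15509, 15380.2 and 16064 in hepatocytes and 7407, 7633 and 7590.3 in Kupffer cells, and 2672 at 7 days and 2484 at 14 days. Unlike the summed hepatocyte markers, which were 971 and 932 in long cultures, Trf stayed above LSEC there. Hpx (−2.22) and Hp (−2.03) did not pass.

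Of 26 lysosome and lipid handling genes 2 were lower, Apoc1 and the protease gene Ctsh (−2.75), with a median of −0.69, and Nr1h3 (−2.52) and Ctsc (−2.17) did not pass. Of 22 genes of amino acid, nucleotide and glutathione metabolism 1 was lower, Hgd of tyrosine breakdown (−2.97), with a median of −0.84. Hgd lost its call with the pooled median added before log2 and without Kupffer replicate 1, where the smallest difference was −0.87, and Uox (−2.34) and Arg1 (−2.11) did not pass. Of 18 interferon-stimulated genes 1 was lower, Mx2 (−1.45), with a median of −0.73. It lost its call with the pooled median added before log2, without Kupffer replicate 3 (−0.63) or LSEC replicate 3 (−0.89), and Oas2 (−2.06) and Oasl1 (−1.58) did not pass. Of 20 genes of peroxisomes and fat oxidation, 0 were lower in both (median −0.76), with Ehhadh at −1.57 and Crot at −1.52. Of 18 genes of the respiratory chain, 0 were lower in both (median −0.38), with Cox5a at −0.98 and Ndufa4 at −0.80.

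Immediate-early genes, a list added after the data were seen, had 7 lower and 0 higher of 35 tested, with a median of −1.23. Over all genes tested, 0.803% were lower and 2.47% higher. Immediate-early genes respond within minutes to growth factors or stress. The hepatocytes, Kupffer cells and LSEC were sorted fresh, and the 1-day HSC were cultured in medium with serum. A cause of the lower values was not tested, and cell type and culture cannot be told apart for HSC. Zfp36, which destabilises cytokine RNA, read 987, 1043 and 481 in LSEC and 1179.6 and 1417 in 1-day HSC, against 4157, 5487 and 4218 in hepatocytes and 8295, 9196 and 9548 in Kupffer cells. Btg2, an antiproliferative gene, read 1018, 983 and 561 in LSEC and 937 and 1216 in 1-day HSC, against 5695, 4174 and 5513 in hepatocytes and 5545, 6714 and 7228 in Kupffer cells. LSEC replicate 3 was the lowest of the 11 arrays for both genes. Atf3 (−2.28) and Rgs2 passed too, and Klf10, Per1 and Gadd45b completed the 7. Fos (−2.21) and Fosl1 (2.18) did not pass.

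Hepatocyte signal on the 1-day HSC arrays touches the lower genes. The median share of 8 hepatocyte markers was 11.5% and 4.50% of the hepatocyte mean on these arrays, with Alb at 47.7% and 33.8%, and 0.919% and 0.848% at 7 and 14 days, against 1.02% to 1.10% on LSEC arrays. When that share of the hepatocyte mean was subtracted from each 1-day array, 123 genes were lower in both, among them all 97. Higher in both were 282, all of them among the 298. The subtraction only lowers 1-day HSC values, so keeping the 97 and adding no higher gene were nearly fixed in advance. Summed over 7 Kupffer markers, intensity was 2263 and 3335 in 1-day HSC and 1020 to 1218 in LSEC, against 994 to 1334 in hepatocytes and 61379 to 64185 in Kupffer cells.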

How the data were processed

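The authors deposited 1 table of 13 Affymetrix arrays, holding an intensity per probe set on a linear scale, from 10.6 to 28854. Affymetrix Expression Console and MAS5 5.0 are named, without role or order, in the submitters' processing notes; the normalization is not given in the sources used here. No further normalization was applied. Of 25194 probe sets, 21181 carried 1 gene symbol, 1379 several and 2634 none, and 21097 of the first kind matched RefSeq. A gene was represented by its probe set of highest mean, and kept when at least 2 arrays were above the pooled median of 224.5, which left 12081 genes on 11 arrays and 12368 on 13 arrays. After adding 83, near the 20th percentile of all values, log2 values were fitted with limma 3.58.1 in R 4.3.3, with a mean per group and no covariate. P-values were adjusted by Benjamini-Hochberg over all genes tested. They measure the spread between arrays labelled as biological replicates, whose number limits the precision. The long cultures were tested in the 13-array fit. On simulated data with 200 of 12081 genes changed by 1.5 on the log2 scale in the main comparison, 198 were recovered. False calls among genes that differ in a single population were not tested.

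Named genes were the 15 higher and 10 lower genes with the widest margin, up to 4 called and 2 uncalled genes of each list by effect, the 5 most uneven genes each way between LSEC and 1-day HSC, and the 5 highest and 5 lowest in long culture against day 1. The members and lists were chosen with earlier results of these data known. Alternatives were quantile normalization, other added constants, filters, probe set summaries and log2 limits, subtraction of marker shares, a replicate block and leaving out each array. The hepatocyte, Kupffer, mesothelial, cholangiocyte and lymphocyte lists served as cell type checks only. Array scan dates were not analysed here. Some of the named genes and 1 list of signalling genes are not reported here.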

Additional observations from a re-analysis of the deposited data

How the results depend on the processing

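Across quantile normalization, the added constants, both other filters on dim genes, the mean over probe sets, the replicate block and leaving out each array, 83 of 100 named calls held and 56 of 62 uncalled named genes stayed uncalled, with 0 changes of direction. Subtraction of the LSEC share ended 21 of 80 named calls of higher genes, and a limit of 2 ended 59 of the 100. Adding the pooled median in place of 83 before log2 ended 13 of these calls, quantile normalization 3 and the mean over probe sets 1, and adding 16 gained 5. With that median the genes lower in both but higher in LSEC than in 1-day HSC numbered 2, where the main count was 4. With no minimum difference, 1743 genes were higher and 626 lower in both, and with a minimum of 2 they were 62 and 23. Subtraction of the LSEC share left 195 higher genes. After subtraction of the hepatocyte mean, endothelial shares were 9.77% and 12.0% at day 1, −1.13% at 7 days and −1.10% at 14 days. The counts of 298 and 97 were 263 and 119 after quantile normalization, 212 and 73 with the pooled median added and 371 and 125 with 16 added. Leaving out each array gave 289 to 309 higher genes and 94 to 103 lower genes, and 188 to 208 genes kept in long culture. The count kept by values alone, an alternative chosen after seeing the data, was 182.

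Deviations from the group means of same-numbered arrays of different groups were correlated at r = −0.111 to 0.110 (15 pairs). Other-numbered arrays had r = −0.125 to 0.131 (30 pairs). Deviations from the means of so few arrays constrain each other, so these values cannot show that same-numbered arrays were unpaired. With a replicate block, 288 genes were higher in both and 98 lower, and no named call changed. Each longer HSC culture has 1 array, only 2 arrays hold 1-day HSC, and dim genes are limited by the added constant.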

Other observations

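Contractile and mesothelial markers were read across the HSC cultures as sums of intensity, a measure that took no part in choosing the shared genes. Over 6 smooth muscle markers the sum was 6111 to 6435 in 1-day HSC, 16808 at 7 days and 16413 at 14 days, with 1967 to 2265 in LSEC, 1178 to 1253 in hepatocytes and 992 to 1140.2 in Kupffer cells. Over 9 mesothelial and portal fibroblast markers the sum was 2414 to 2751 in 1-day HSC, 3866 at 7 days and 5219 at 14 days, with 2017 to 3175 in LSEC, 1387 to 1532 in hepatocytes and 1189 to 1365 in Kupffer cells. The stellate marker sum was 32138 at 7 days and 28593 at 14 days. These sums have no test.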
